A study of Macaca mulatta with 21 samples.

Results

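The Polycomb group genes were followed across 6 rhesus macaque pluripotent stem cell lines and 1 culture of skin fibroblasts, profiled with Affymetrix rhesus expression arrays. The list, compiled by symbol from the subunits of the Polycomb repressive complexes PRC1 and PRC2, held 31 genes. For 20 of them the platform annotation paired a probe set with that gene alone, out of 14133 genes so named. All 20 passed the filter on low signals, a log2 signal of at least 5 on at least 3 arrays, among 11143 genes tested. EZH2, MTF2, AEBP2, RBBP4, BMI1, RNF2, CBX8, PCGF3, PCGF5, PHC1 and YAF2 were not analysed here. By RefSeq's rhesus annotation, EZH1, SUZ12, PCGF2 and CBX2 lie on chromosome 16, CBX6, CBX7 and L3MBTL2 on chromosome 10, JARID2, PHF1 and RING1 on chromosome 4, RBBP7 on the X chromosome and the other 9 on 7 further autosomes.

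The male line CRES-1 and the female line CRES-3 were derived from blastocysts made by somatic cell nuclear transfer (cloned lines). RiPS1 (male) was induced from fetal skin fibroblasts, RiPS2 (female) from skin fibroblasts of an animal aged 10 years and RiPS3 (female) from those of an animal aged 8 years, each with retroviruses carrying OCT4, SOX2, KLF4 and cMYC. ORMES23 (male) is an embryonic stem cell line from a fertilized blastocyst, and the fibroblasts were adult female skin cells (8 years). Each line was 1 derivation, measured on 3 arrays, A, B and C, that the labels call biological replicates, so the errors below describe cultures of a line and not lines of a kind. All cultures, the fibroblasts included, were grown on mouse embryonic feeder cells, and undifferentiated colonies were picked by hand.

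Polycomb proteins keep developmental genes silent. PRC2 methylates a lysine of histone H3 through EZH1 or EZH2, held by SUZ12 and EED, and PRC1 attaches ubiquitin to histone H2A through RING1 or RNF2. Canonical PRC1 carries a CBX protein that reads the methyl mark and a PHC protein that joins complexes together, whereas variant PRC1 carries RYBP or YAF2 and is brought to DNA by other subunits, such as KDM2B. In embryonic stem cells both complexes sit on the promoters of lineage regulators, and PRC2 also coats the inactive X chromosome of female cells.

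The signals were log2 values that the authors had summarised with RMA, running over all probe sets between 2.09 and 14.7, with array medians of 4.98 to 5.14. Arrays of 1 line correlated at 0.970 or higher. A list of 9 pluripotency genes averaged 9.61 to 10.28 on the 18 pluripotent arrays, against 4.57 to 5.04 on the 3 fibroblast arrays, where 8 of the 9 genes were under log2 5. By the test and 2-fold threshold given below, 7 of the 9 were higher than in fibroblasts in all 6 lines, against 12.7% of all genes. In each of CRES-1, CRES-3, RiPS1 and RiPS3, 1 of the 9 was lower. A list of 14 fibroblast genes averaged 7.18 to 8.21 on the pluripotent arrays, against 10.58 to 10.88 on the fibroblast arrays. Of these 14, 8 were lower in all 6 lines, against 10.5% of all genes, and 1 was higher in each of CRES-3, RiPS3 and ORMES23. A list of 16 proliferation genes averaged 10.34 to 10.70 on the pluripotent arrays, against 9.83, 7.73 and 8.83 on fibroblast arrays A, B and C, so the fibroblast arrays differed among themselves in these genes. The mean of this list had an SD over 3 arrays of 0.04 to 0.14 in pluripotent lines and 1.05 in fibroblasts. The SD of single members was 0.01 to 0.54 in pluripotent lines (median 0.14) and 0.04 to 0.65 in fibroblasts (median 0.145).

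**Figure D1:**
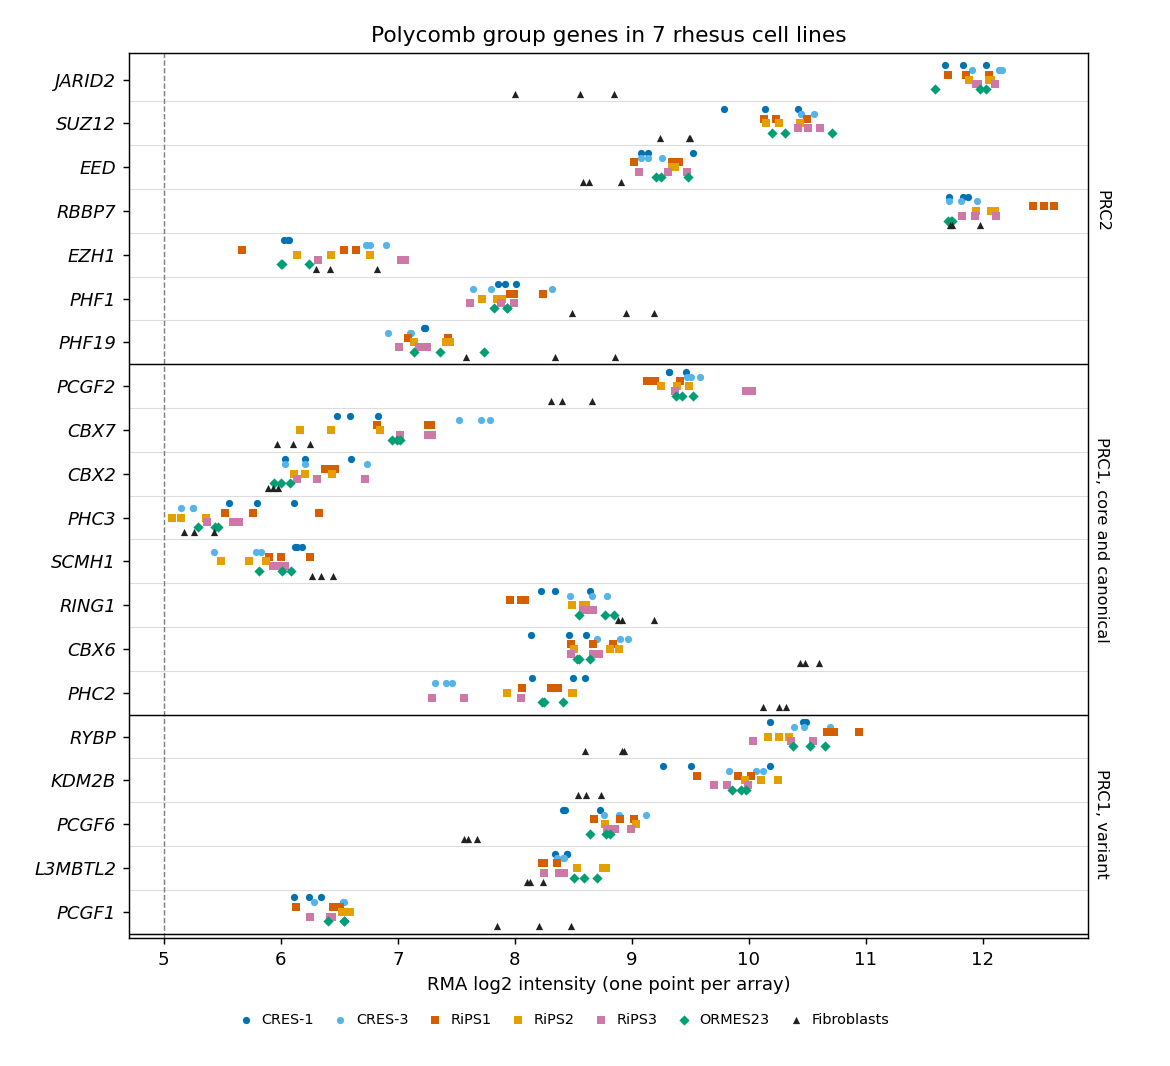
Log2 signal of each of the 20 measured Polycomb genes (rows, grouped by complex) on every array, with 1 symbol and colour per line and 3 points per line; the vertical dashed line marks log2 5, the level used to filter low signals. JARID2 lay between 11.59 and 12.16 on all 18 pluripotent arrays and between 8.00 and 8.85 on the 3 fibroblast arrays, while CBX6, PHC2 and PCGF1 lay higher in fibroblasts. Levels are compared between lines within a gene, not between genes.

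The first comparison set each pluripotent line against the fibroblasts, the somatic cell type in the study. Of the 20 members, 3 rose and 3 fell in all 6 lines, against 12.7% and 10.5% of all genes. Both directions occurred within variant PRC1, where RYBP and KDM2B rose and PCGF1 fell. JARID2, RYBP and KDM2B rose in all 6 lines, by log2 3.37 to 3.60, 1.43 to 1.96 and 1.02 to 1.48, whereas PHC2, CBX6 and PCGF1 fell in all 6, with log2 differences of -2.84 to -1.82, -2.11 to -1.66 and -1.95 to -1.62. Here and below, a gene rose or fell where limma gave a Benjamini-Hochberg adjusted p under 0.05 over all genes tested and the means differed at least 2-fold. SEs come from the same fit (14 residual degrees of freedom). The samples are bulk cultures, in which fewer cells of a type and less RNA per cell cannot be told apart.

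In CRES-1, 3 of the 20 members rose and 4 fell, where 16.4% and 14.2% of all genes tested did. CRES-3 had 7 members higher and 4 lower, against 19.1% and 14.2% of all genes (33.3% in either direction). RiPS1 had 5 higher and 4 lower, against 19.3% and 13.5% (32.8% in either direction). RiPS2 had 4 higher and 4 lower, against 17.2% and 14.6% (31.8% in either direction). In RiPS3, 7 rose and 5 fell, against 18.3% and 14.2% of all genes, and in ORMES23, 4 rose and 3 fell, against 18.5% and 14.1%. The share of members that changed in either direction thus ran from 7 of 20 in CRES-1 and ORMES23 to 12 of 20 in RiPS3, where 30.6%, 32.6% and 32.5% of all genes changed. This span depends on the 2-fold threshold. In ORMES23, SUZ12, PCGF2 and PHF1 stood just under it, at 1.99-, 1.98- and 1.98-fold. With the adjusted p alone, 15 to 18 of 20 members passed in each line, against 6623 to 7264 of 11143 genes. Median member differences were log2 0.30, 0.26, 0.52, 0.27, 0.27 and 0.09 in CRES-1, CRES-3, RiPS1, RiPS2, RiPS3 and ORMES23, against 0.02 to 0.05 over all genes. These 6 comparisons share the same fibroblast arrays. Members that rose in all 6 lines made up 3 of 20, against 12.7% of all genes, and those that fell in all 6 another 3, against 10.5%. In no line did a member rise that fell in another, and 8 members, against 56.9% of all genes, neither rose nor fell in any.

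**Figure D2:**
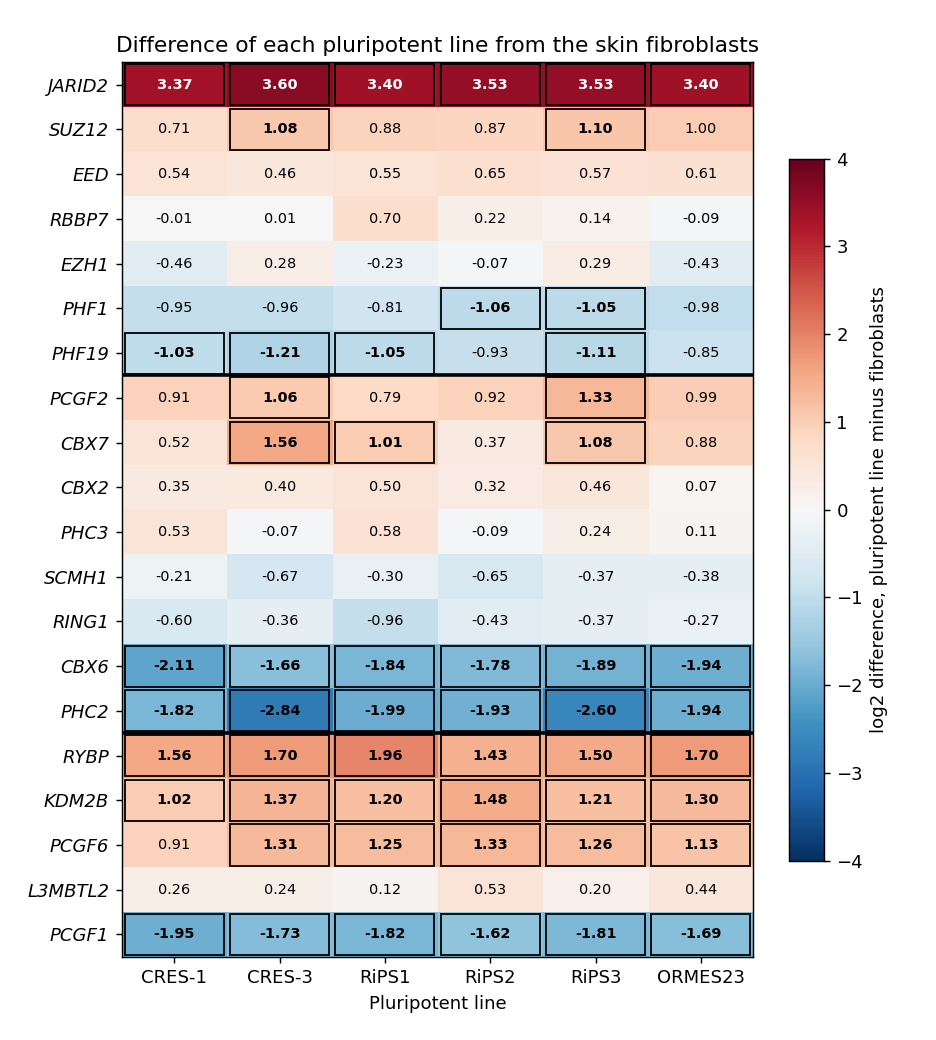
Heat map of the log2 difference from the fibroblasts, with a row for each member (by complex: PRC2 above, canonical PRC1 in the middle, variant PRC1 below) and a column for each pluripotent line; red is higher and blue lower than in fibroblasts, and a framed bold value passed the adjusted p and the 2-fold threshold. JARID2 stood at 3.37 to 3.60 in the 6 lines, and PHC2 spread from -2.84 in CRES-3 to -1.82 in CRES-1.

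Among PRC2 genes, JARID2 rose the most. It encodes an accessory subunit that helps bring PRC2 to its target genes. JARID2 signals were 11.68, 11.83 and 12.03 in CRES-1, 12.14, 12.16 and 11.91 in CRES-3, 12.05, 11.70 and 11.86 in RiPS1, 12.07, 12.05 and 11.88 in RiPS2, 11.94, 11.96 and 12.10 in RiPS3 and 11.59, 11.98 and 12.03 in ORMES23, against 8.00, 8.85 and 8.56 in fibroblasts. The lowest pluripotent value, 11.59, lay above the highest fibroblast value, 8.85, and the 6 lines averaged 10.4 to 12.1 times the fibroblast signal (SE 0.18 on the log2 scale, adjusted p 8.08e-12 to 2.15e-11). The line means differed by log2 0.22 at most among the pluripotent lines (F test, adjusted p = 0.821). A second JARID2 probe set gave a mean difference of log2 4.00 over the 6 lines, with 7.94 in fibroblasts.

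SUZ12, the scaffold of PRC2, and EED, the subunit that binds the methyl mark, were both higher on every pluripotent array than on any fibroblast array. SUZ12 signals were 10.14, 10.42 and 9.79 in CRES-1, 10.45, 10.45 and 10.56 in CRES-3, 10.13, 10.50 and 10.23 in RiPS1, 10.15, 10.44 and 10.26 in RiPS2, 10.42, 10.61 and 10.51 in RiPS3 and 10.71, 10.31 and 10.20 in ORMES23, against 9.50, 9.24 and 9.49 in fibroblasts. It rose in CRES-3 by log2 1.08 (SE 0.16, adjusted p = 1.03e-05) and in RiPS3 by 1.10 (adjusted p = 8.12e-06), and differed by 0.71 to 1.00 in the other 4 lines, all past the adjusted p but under 2-fold. The second SUZ12 probe set showed a smaller mean difference of 0.42, and with the mean of both CRES-3 stood at 0.89, RiPS3 at 0.81 and CRES-1 at 0.23, which did not pass (adjusted p = 0.408). In that second probe set CRES-1, at 6.46, lay below the fibroblasts, at 6.72. Without fibroblast array B, the CRES-3 difference was 0.99. EED lay between 9.02 and 9.52 on the pluripotent arrays and between 8.58 and 8.91 in fibroblasts. Its differences of log2 0.46 to 0.65 (SE 0.14, adjusted p 0.000699 to 0.00971) were alike in size in the 6 lines and under 2-fold in each.

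The catalytic paralog EZH1 did not pass the test in any line. EZH1 signals were 6.07, 6.06 and 6.03 in CRES-1, 6.73, 6.90 and 6.76 in CRES-3, 6.64, 6.54 and 5.67 in RiPS1, 6.14, 6.76 and 6.43 in RiPS2, 6.32, 7.06 and 7.03 in RiPS3 and 6.0, 6.01 and 6.24 in ORMES23, against 6.42, 6.82 and 6.30 in fibroblasts. The groups overlapped, with CRES-3 and 2 arrays of RiPS3 at or above most fibroblast values and CRES-1 and ORMES23 below them. Differences from fibroblasts ran from -0.46 in CRES-1 to 0.29 in RiPS3 (SE 0.23, adjusted p 0.0999 to 0.814), and the 95% intervals reached from -0.96 to 0.78.

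PHF1 and PHF19, the Polycomb-like subunits that bind DNA and methylated histone H3, were lower in the pluripotent lines. PHF1 signals were 7.86, 7.92 and 8.01 in CRES-1, 7.64, 8.32 and 7.80 in CRES-3, 8.24, 7.99 and 7.96 in RiPS1, 7.72, 7.89 and 7.85 in RiPS2, 7.62, 7.99 and 7.88 in RiPS3 and 7.93, 7.82 and 7.93 in ORMES23, against 8.49, 9.19 and 8.95 in fibroblasts. It fell in RiPS2 by 1.06 and in RiPS3 by 1.05 on the log2 scale (SE 0.17, adjusted p 3.87e-05 and 4.02e-05), and stood at -0.98 to -0.81 in the other 4 lines. Every pluripotent array lay below every fibroblast array. Fibroblast array B carried the highest PHF1 value, and without it neither line passed 2-fold (-0.90 in both). RiPS3 stood at -0.95 without its own array A.

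PHF19 signals were 7.23, 7.23 and 7.22 in CRES-1, 6.92, 7.10 and 7.11 in CRES-3, 7.09, 7.09 and 7.43 in RiPS1, 7.45, 7.14 and 7.41 in RiPS2, 7.01, 7.25 and 7.18 in RiPS3 and 7.14, 7.36 and 7.74 in ORMES23, against 8.86, 7.58 and 8.34 in fibroblasts. It fell in CRES-1, CRES-3, RiPS1 and RiPS3, with log2 differences of -1.03, -1.21, -1.05 and -1.11 (SE 0.23, adjusted p 0.000136 to 0.000697), and stood at -0.93 in RiPS2 and -0.85 in ORMES23. The 3 fibroblast arrays kept the order of the proliferation list, highest on A and lowest on B, and fibroblast B was lower than array C of ORMES23. Without fibroblast array A no line passed 2-fold, with differences of -0.73 in CRES-1, -0.91 in CRES-3, -0.75 in RiPS1 and -0.81 in RiPS3. CRES-1 stood at -0.99 without fibroblast array C, and RiPS1 just under 2-fold without its array A or B. SUZ12, RBBP7, RING1, PCGF6 and PHC3 were also highest on fibroblast array A and lowest on B. JARID2, PHF1, PCGF1, PCGF2, KDM2B, RYBP and L3MBTL2 ran in reverse, lowest on A and highest on B. The part of proliferation in the PHF19 difference and in these others was not tested.

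RBBP7, a histone-binding subunit of PRC2 and other complexes and the member on the X chromosome, was singled out after its values were seen. RBBP7 signals were 11.71, 11.83 and 11.87 in CRES-1, 11.95, 11.71 and 11.81 in CRES-3, 12.43, 12.52 and 12.61 in RiPS1, 12.07, 12.10 and 11.94 in RiPS2, 12.11, 11.82 and 11.93 in RiPS3 and 11.70, 11.73 and 11.74 in ORMES23, against 11.98, 11.72 and 11.74 in fibroblasts. RiPS1 was the high line, and its 3 arrays lay above every other array. RiPS1 stood 1.63 times above the fibroblasts (log2 0.70, SE 0.10, adjusted p = 1.17e-05), under the 2-fold threshold, and the other lines differed from fibroblasts by -0.09 to 0.22, with adjusted p of 0.0723 or more.

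Among canonical PRC1 genes, PHC2 and CBX6 fell, CBX7 and PCGF2 rose in some lines, and RING1 changed less than 2-fold. PHC2 encodes a SAM domain protein that links PRC1 complexes. PHC2 signals were 8.60, 8.50 and 8.15 in CRES-1, 7.41, 7.32 and 7.46 in CRES-3, 8.37, 8.06 and 8.31 in RiPS1, 8.49, 7.93 and 8.50 in RiPS2, 8.05, 7.57 and 7.29 in RiPS3 and 8.41, 8.23 and 8.25 in ORMES23, against 10.12, 10.26 and 10.32 in fibroblasts. The fibroblasts lay above all 18 pluripotent arrays, and CRES-3 and RiPS3 were the lowest lines. The fall was 7.15-fold in CRES-3 and 6.04-fold in RiPS3, and 3.53- to 3.96-fold in the other 4 lines (SE 0.18 on the log2 scale, adjusted p 2.62e-10 to 1.07e-07). The mean level of the 14 fibroblast genes ran in a similar order, with 8.05 in CRES-1, 7.31 in CRES-3, 7.91 in RiPS1, 7.82 in RiPS2, 7.63 in RiPS3, 7.78 in ORMES23 and 10.74 in fibroblasts, and its part in the PHC2 values was not tested. A second PHC2 probe set was dim, at 5.23 in fibroblasts, and gave a mean difference of -0.18. With the mean of both probe sets PHC2 was under 2-fold in CRES-1 (-0.95).

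CBX6, a chromodomain protein, was lower in every pluripotent line by a similar amount. CBX6 signals were 8.46, 8.61 and 8.14 in CRES-1, 8.90, 8.97 and 8.70 in CRES-3, 8.67, 8.84 and 8.48 in RiPS1, 8.51, 8.89 and 8.81 in RiPS2, 8.48, 8.67 and 8.72 in RiPS3 and 8.64, 8.53 and 8.55 in ORMES23, against 10.48, 10.60 and 10.44 in fibroblasts. The highest pluripotent value was 8.97 and the lowest fibroblast value 10.44. The fall was 3.16- to 4.31-fold (SE 0.14 on the log2 scale, adjusted p 3.47e-10 to 7.50e-09).

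CBX7, the chromodomain protein linked to self-renewal of embryonic stem cells and to silencing of the CDKN2A locus, moved the other way. CBX7 signals were 6.48, 6.59 and 6.83 in CRES-1, 7.71, 7.79 and 7.52 in CRES-3, 7.28, 7.26 and 6.82 in RiPS1, 6.16, 6.85 and 6.43 in RiPS2, 7.02, 7.26 and 7.29 in RiPS3 and 6.95, 7.02 and 6.99 in ORMES23, against 6.10, 6.25 and 5.97 in fibroblasts. It rose in CRES-3 by log2 1.56 (SE 0.16, adjusted p = 1.66e-07), in RiPS3 by 1.08 (adjusted p = 1.47e-05) and in RiPS1 by 1.01 (adjusted p = 2.91e-05). ORMES23 and CRES-1 stood at 0.88 and 0.52, under 2-fold, and RiPS2 at 0.37 did not pass the test (adjusted p = 0.0585). RiPS2 overlapped the fibroblasts through its array A. The RiPS1 call sat at the threshold: its difference was 0.93 without RiPS1 array A, 0.94 without array B, 0.95 without fibroblast array C, and 0.86 after quantile normalization, under which RiPS3 also stood below 2-fold (0.97). With arrays centred on their medians the RiPS1 difference was just under the threshold.

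PCGF2, also called MEL18, is a RING finger partner of the PRC1 ubiquitin ligase. PCGF2 signals were 9.32, 9.32 and 9.46 in CRES-1, 9.58, 9.51 and 9.47 in CRES-3, 9.41, 9.20 and 9.13 in RiPS1, 9.25, 9.49 and 9.39 in RiPS2, 9.37, 10.03 and 9.98 in RiPS3 and 9.43, 9.38 and 9.52 in ORMES23, against 8.31, 8.66 and 8.40 in fibroblasts. Every pluripotent array lay above the fibroblasts, and RiPS3 arrays B and C were the highest. It rose in RiPS3 by log2 1.33 (SE 0.15, adjusted p = 3.25e-07) and in CRES-3 by 1.06 (adjusted p = 4.91e-06), and differed by 0.79 to 0.99 in the other 4 lines. The 4 PCGF2 probe sets differed in size, with mean differences of 1.00, 0.79, 0.51 and 0.26. With their mean, RiPS3 stood at 0.91 and CRES-3 at 0.73, and CRES-3 stood at 0.99 without fibroblast array A.

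RING1, a ubiquitin ligase of PRC1, was lower on every pluripotent array but under 2-fold. RING1 signals were 8.22, 8.34 and 8.64 in CRES-1, 8.79, 8.66 and 8.47 in CRES-3, 8.05, 8.09 and 7.96 in RiPS1, 8.49, 8.58 and 8.61 in RiPS2, 8.67, 8.58 and 8.62 in RiPS3 and 8.55, 8.77 and 8.85 in ORMES23, against 9.19, 8.88 and 8.92 in fibroblasts. RiPS1 was the low line, at -0.96 (SE 0.12, adjusted p = 2.37e-06), and ORMES23, at -0.27, did not pass (adjusted p = 0.0636). The remaining canonical members, CBX2, PHC3 and the SAM domain protein SCMH1, were under 2-fold in every line, with differences of 0.07 to 0.50, -0.09 to 0.58 and -0.67 to -0.21. The adjusted p alone was passed by SCMH1 in all lines but CRES-1, by PHC3 in CRES-1 and RiPS1, and by CBX2 in RiPS1 and RiPS3. SCMH1 in RiPS1 and CBX2 in RiPS3 no longer passed under 6 and 5 of 14 processing alternatives.

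Among variant PRC1 genes, RYBP and KDM2B rose in all 6 lines, PCGF6 rose in 5, and PCGF1 fell in all 6. RYBP takes the place of a CBX protein and stimulates ubiquitination. RYBP signals were 10.18, 10.49 and 10.46 in CRES-1, 10.39, 10.47 and 10.69 in CRES-3, 10.73, 10.94 and 10.67 in RiPS1, 10.26, 10.34 and 10.16 in RiPS2, 10.55, 10.36 and 10.04 in RiPS3 and 10.65, 10.52 and 10.38 in ORMES23, against 8.60, 8.93 and 8.92 in fibroblasts. The lowest pluripotent value was 10.04 and the highest fibroblast value 8.93. The rise was 2.70- to 3.89-fold (SE 0.14 on the log2 scale, adjusted p 1.60e-09 to 9.98e-08), highest in RiPS1, and the 4 RYBP probe sets gave mean differences of log2 1.64 to 1.75.

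KDM2B binds unmethylated CpG islands and brings variant PRC1 to them. KDM2B signals were 9.27, 9.51 and 10.18 in CRES-1, 10.12, 10.06 and 9.83 in CRES-3, 9.91, 9.56 and 10.02 in RiPS1, 10.25, 10.10 and 9.97 in RiPS2, 9.70, 9.99 and 9.81 in RiPS3 and 9.86, 9.98 and 9.93 in ORMES23, against 8.54, 8.74 and 8.61 in fibroblasts. All pluripotent arrays lay above the fibroblasts, with CRES-1 array A the lowest of them. The rise was 2.03-fold in CRES-1 (adjusted p = 8.64e-05) and 2.30- to 2.79-fold in the other lines (SE 0.18 on the log2 scale). The CRES-1 rise was at the threshold, with log2 0.76 without CRES-1 array C, 0.97 without fibroblast array A and 0.97 with arrays centred on their medians. In each of these KDM2B no longer counted among the members that rose in all 6 lines.

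PCGF1, the RING finger partner that works with KDM2B and BCOR, ran opposite to KDM2B. PCGF1 signals were 6.24, 6.11 and 6.34 in CRES-1, 6.28, 6.53 and 6.54 in CRES-3, 6.51, 6.45 and 6.13 in RiPS1, 6.59, 6.59 and 6.52 in RiPS2, 6.44, 6.42 and 6.25 in RiPS3 and 6.54, 6.40 and 6.54 in ORMES23, against 7.85, 8.48 and 8.21 in fibroblasts. The highest pluripotent value was 6.59 and the lowest fibroblast value 7.85. The fall was 3.06- to 3.86-fold (SE 0.14 on the log2 scale, adjusted p 1.38e-09 to 1.64e-08).

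PCGF6 defines the variant complex that also holds MGA and L3MBTL2. PCGF6 signals were 8.43, 8.73 and 8.41 in CRES-1, 8.89, 8.76 and 9.12 in CRES-3, 8.68, 8.90 and 9.02 in RiPS1, 8.77, 9.04 and 9.04 in RiPS2, 8.99, 8.79 and 8.86 in RiPS3 and 8.64, 8.78 and 8.81 in ORMES23, against 7.68, 7.57 and 7.60 in fibroblasts. The groups did not overlap, and CRES-1 was the lowest pluripotent line. PCGF6 rose by log2 1.13 to 1.33 in 5 lines (SE 0.12, adjusted p 4.70e-08 to 4.01e-07) and stood at 0.91 in CRES-1 (adjusted p = 5.86e-06), under 2-fold. L3MBTL2, its MBT domain partner, differed by 0.12 to 0.53, under 2-fold in every line. It passed the adjusted p in CRES-1, CRES-3, RiPS2 and ORMES23. In CRES-1 and CRES-3 it no longer passed under 7 and 8 of 14 processing alternatives.

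Counted over arrays, 7 members (EED, SUZ12, JARID2, PCGF2, PCGF6, KDM2B and RYBP) had all 18 pluripotent values above the 3 fibroblast values, against 24.5% of all genes, and 6 members (PHF1, RING1, CBX6, PCGF1, PHC2 and SCMH1) had all of them below, against 19.1%. Of the 16 proliferation genes, 13 or 14 rose in each line, and the fibroblast list was lower in each line. How far growth rate or cell type sets the members' differences was not tested.

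**Figure D3:**
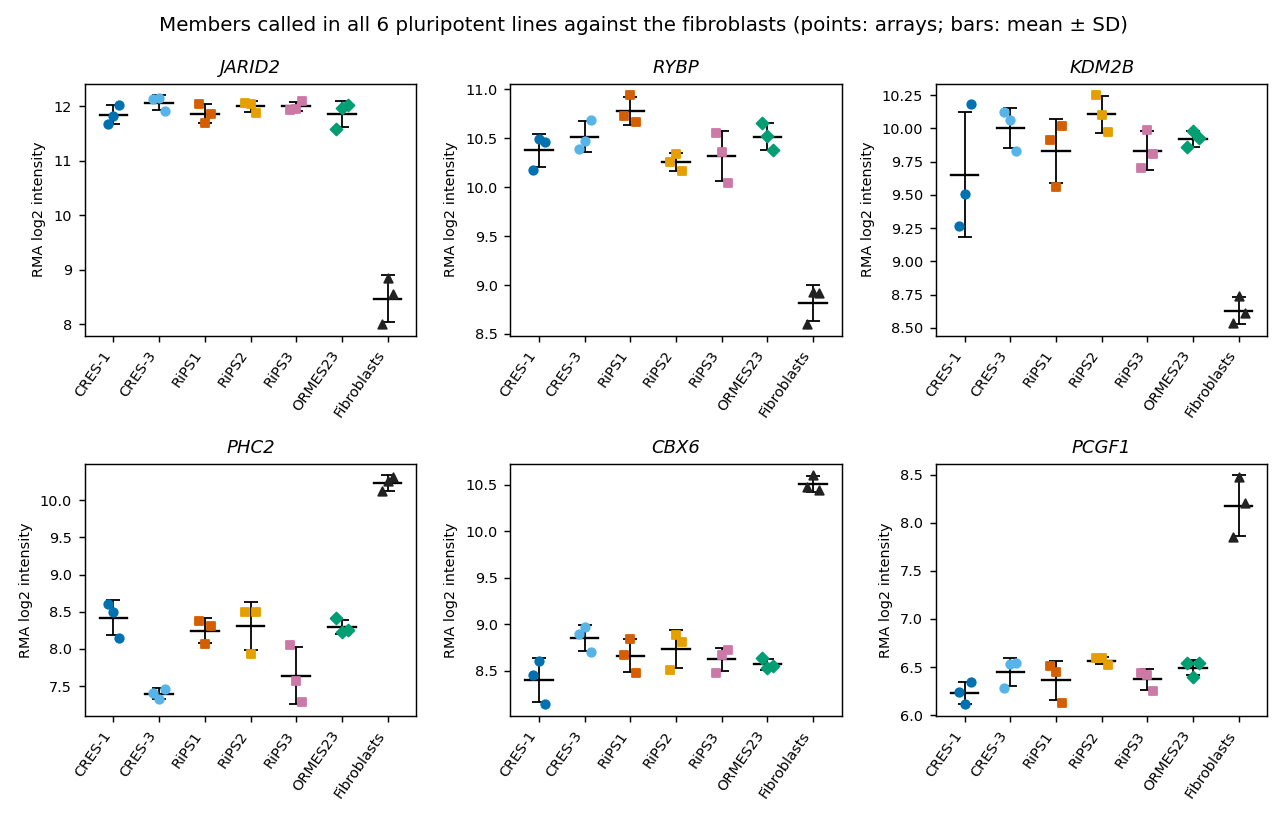
Log2 signal on every array for the 6 members that changed in the same direction in all 6 pluripotent lines; points are arrays A, B and C, and bars give the line mean ± SD. Each panel has its own vertical axis, which does not start at 0. JARID2, RYBP and KDM2B lie higher, and PHC2, CBX6 and PCGF1 lower, in each pluripotent line than in fibroblasts, with no overlap of arrays.

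A further list held 28 Polycomb partner genes, of which 22 were tested. In CRES-1, CRES-3, RiPS1, RiPS2, RiPS3 and ORMES23, 5, 5, 6, 5, 6 and 6 of them rose, and 1 fell in RiPS1 and none elsewhere, where 16.4% to 19.3% of all genes rose and 13.5% to 14.6% fell. Their median differences from fibroblasts were log2 0.21 to 0.49, against 0.02 to 0.05 over all genes. The 5 that rose in all 6 lines, as 12.7% of all genes did, were MBTD1, BCOR, MGA, HDAC2 and AUTS2. MBTD1, an MBT domain protein, averaged 10.06 to 10.52 in the pluripotent lines and 6.77 in fibroblasts (SE 0.14, adjusted p 1.58e-13 to 9.75e-13). BCOR, the corepressor in the PCGF1 complex, averaged 9.80 to 10.20 in the pluripotent lines and 7.77 in fibroblasts. BCOR was thus higher in the lines in which PCGF1 was lower. On fibroblast arrays A, B and C it stood at 8.30, 7.19 and 7.81, the order of the proliferation list, whereas PCGF1 ran in reverse. The part of proliferation in this contrast was not tested. MGA, a DNA-binding protein of the PCGF6 complex, averaged 8.87 to 9.24 in the pluripotent lines and 7.61 in fibroblasts. HDAC2, a histone deacetylase, averaged 11.51 to 11.83 in the pluripotent lines and 9.76 in fibroblasts. AUTS2, known as a PRC1 partner in neurons, averaged 11.78 to 12.02 in the pluripotent lines and 9.84 in fibroblasts.

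Enzymes that remove the Polycomb marks, together with their partners, formed further lists. Of 7 tested genes of the deubiquitinase complex PR-DUB and its partners, KDM1B alone fell in all 6 lines, as 10.5% of all genes did. Its means were 5.98 to 6.70 in the pluripotent lines and 8.93 in fibroblasts (SE 0.31, adjusted p 1.86e-07 to 5.31e-06). KDM1B is a histone demethylase listed here as a partner of PR-DUB, not as an enzyme that removes a Polycomb mark. Only ORMES23 had another called gene of this list, 1 that rose. KDM6B, a demethylase of the PRC2 mark, averaged 5.09 to 5.63 in the pluripotent lines and 4.75 in fibroblasts, where it was under log2 5. Its differences of log2 0.34 to 0.87 were under 2-fold in every line and passed the adjusted p in all lines but RiPS3.

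Known targets of Polycomb in embryonic stem cells, a list of 44 lineage regulators with 25 tested, changed in both directions. In CRES-1, CRES-3, RiPS1, RiPS2, RiPS3 and ORMES23, 4, 3, 3, 3, 5 and 6 rose and 6, 7, 7, 7, 7 and 4 fell, with median differences of log2 -0.30 to 0.05. Of all genes, 16.4% to 19.3% rose and 13.5% to 14.6% fell in these comparisons, so several of the counts lay near the background. MSX1, DLX1, IRX3 and IRX5, homeobox genes, fell in all 6 lines, with log2 differences of -4.24 to -2.89 for MSX1 and -3.51 to -2.71 for IRX5. On the pluripotent arrays DLX1 (4.16 to 5.17) and IRX5 (4.82 to 6.06) lay near log2 5, the filter level. These homeobox genes were highest on fibroblast array A and lowest on B, the order of the proliferation list, whose part was not tested. EOMES, a T-box regulator of mesoderm and endoderm, rose in all 6, and its fibroblast mean was under log2 5. Of the 25 targets tested, 9 also stood in a list of endoderm, mesoderm, neural or trophoblast markers. The endoderm list averaged 6.13 to 9.55 on the pluripotent arrays and 5.79 to 6.11 on the fibroblast arrays, and the part of differentiating cells in these counts was not tested.

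The second comparison asked which members differed among the 6 pluripotent lines. An F test over the 6 lines called 2 of 20 members, CBX7 and PHC2, against 7.52% of all genes. CBX7 averaged 6.63 in CRES-1, 7.67 in CRES-3, 7.12 in RiPS1, 6.48 in RiPS2, 7.19 in RiPS3 and 6.99 in ORMES23, a range of log2 1.19 (adjusted p = 0.000806). PHC2 averaged 8.42 in CRES-1, 7.39 in CRES-3, 8.25 in RiPS1, 8.31 in RiPS2, 7.64 in RiPS3 and 8.30 in ORMES23, a range of 1.02 (adjusted p = 0.00208). CRES-3 was highest in CBX7 and lowest in PHC2, while the other ends were held by RiPS2 (lowest CBX7) and CRES-1 (highest PHC2). The PHC2 range was under 2-fold without CRES-1 array A (0.93), CRES-1 array B (0.98) or CRES-3 array B (0.98).

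With the adjusted p alone, 6 of 20 members passed, against 17.1% of all genes. Besides CBX7 and PHC2 these were RBBP7 (range 0.79, adjusted p = 0.000502), RING1 (0.69, adjusted p = 0.00663), PHC3 (0.67, adjusted p = 0.023) and L3MBTL2 (0.41, adjusted p = 0.0251). The L3MBTL2 range no longer passed the F test in 4 of 26 alternatives (adjusted p up to 0.164). PHC3 was dim, at 5.07 to 6.33 on the pluripotent arrays, near the filter level of log2 5. RiPS1 was the highest line in RBBP7 and the lowest in RING1. The smallest ranges were those of EED (0.19), JARID2 (0.22) and PHF1 (0.24).

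**Figure D4:**
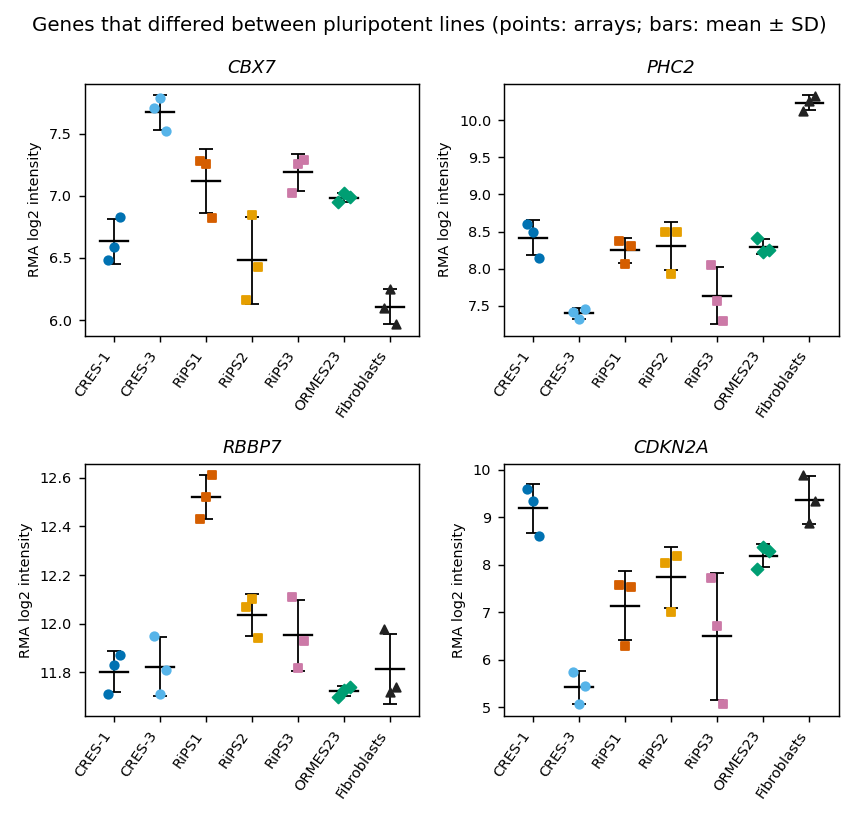
Log2 signal on every array for CBX7, PHC2, RBBP7 and the Polycomb target CDKN2A, with 3 points and the mean ± SD per line, each panel on its own axis. CBX7 is highest in CRES-3 (mean 7.67), where PHC2 (7.39) and CDKN2A (5.42) are at their lowest among the 7 groups, and RBBP7 is highest in RiPS1 (12.52).

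Of the 25 tested targets, the F test over the pluripotent lines called 2, against 7.52% of all genes. CDKN2A, a cell cycle inhibitor gene and a textbook target of Polycomb, was 1 of them. CDKN2A signals were 9.60, 9.35 and 8.61 in CRES-1, 5.75, 5.07 and 5.44 in CRES-3, 7.58, 6.30 and 7.53 in RiPS1, 8.03, 7.0 and 8.18 in RiPS2, 7.72, 6.70 and 5.06 in RiPS3 and 7.92, 8.37 and 8.28 in ORMES23, against 9.88, 8.87 and 9.35 in fibroblasts. CRES-3 was the lowest line by its mean and overlapped RiPS3 through array C of RiPS3, and CRES-1 overlapped the fibroblasts. The line means spread over log2 3.77 (F test, adjusted p = 0.00104). CDKN2A was lower in CRES-3 than in ORMES23 (log2 difference -2.77, SE 0.52, adjusted p = 0.00811) and higher in CRES-1 than in RiPS1 by 2.05 (SE 0.52, adjusted p = 0.0212). Set beside CBX7, CRES-3 had the highest CBX7 and the lowest CDKN2A, and RiPS3 followed in both. CRES-1 had the highest CDKN2A and the second lowest CBX7 of the pluripotent lines. RiPS2, with the lowest CBX7 (6.48), had a lower CDKN2A mean (7.74) than CRES-1 (9.19) and ORMES23 (8.19). These are 7 groups on the same arrays, and no relation between the 2 genes was tested. The 33 targets with a probe set also averaged lowest in CRES-3, at 5.13, against 5.46 to 5.95 in the other pluripotent lines. Of these 33, 18 had a mean under log2 5 in CRES-3, against 9 to 16 in the other pluripotent lines. Against ORMES23, the 25 tested targets had a median difference of log2 -1.12 in CRES-3 and -0.41 to -0.12 in the other lines. The 14 fibroblast genes averaged highest in CRES-1 (8.05) and lowest in CRES-3 (7.31) of the pluripotent lines. The part of either list in the CDKN2A values was not tested. The other called target was GATA3, a regulator of trophoblast, with means of 7.31 in CRES-1, 6.15 in CRES-3, 6.53 in RiPS1, 8.11 in RiPS2, 8.08 in RiPS3 and 8.85 in ORMES23 (adjusted p = 0.0498). Arrays of a line lay apart, at 9.33, 8.59 and 6.33 in RiPS3 and 5.68, 5.23 and 7.54 in CRES-3, but closer in ORMES23 (8.48 to 9.18). The GATA3 call was not repeated with arrays left out.

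The third comparison set the reprogrammed lines against ORMES23, the line from a fertilized embryo. No member was called by limma in any of the 5 pairs, where 0% of all genes in CRES-1, 0.996% in CRES-3, 2.40% in RiPS1, 0.458% in RiPS2 and 0.763% in RiPS3 were called. At an unadjusted p under 0.05 there were 3 of 20 members in CRES-1, 5 in CRES-3, 5 in RiPS1, 3 in RiPS2 and 6 in RiPS3, against 11.4%, 16.9%, 20.8%, 11.9% and 14.6% of all genes. Under 2-fold but past the adjusted p, CBX7 was higher in CRES-3 than in ORMES23 by log2 0.68 (SE 0.16, adjusted p = 0.0329) and PHC2 differed by -0.90 (SE 0.18, adjusted p = 0.0118). In RiPS1 relative to ORMES23, RBBP7 differed by 0.79 (SE 0.10, adjusted p = 0.000146), RING1 by -0.69 (SE 0.12, adjusted p = 0.00202) and L3MBTL2 by -0.32 (SE 0.09, adjusted p = 0.0413). The L3MBTL2 difference failed the adjusted p in 10 of 14 alternatives (-0.17 with the mean of its probe sets, adjusted p = 0.415), among them without ORMES23 array B (-0.32) or C (-0.27) and without RiPS1 array A (-0.36), B (-0.29) or C (-0.30). CBX7 in CRES-3 failed without any 1 ORMES23 array or without CRES-3 array A or B (0.62 to 0.70, adjusted p up to 0.147). PHC2 failed without CRES-3 array A (-0.91) or B (-0.86, adjusted p = 0.067), and stood at -0.48 with the mean of its probe sets. RBBP7 and RING1 passed in all 14. By the adjusted p alone, 2.51% of all genes passed in CRES-3 and 8.34% in RiPS1.

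The intervals bound what these pairs could hold. The 95% interval of the difference from ORMES23 lay within 2-fold for all 20 members in CRES-1 and RiPS2, for 17 in CRES-3, 19 in RiPS1 and 18 in RiPS3. Differences ran from -0.36 (CBX7) to 0.43 (PHC3) in CRES-1, from -0.90 (PHC2) to 0.72 (EZH1) in CRES-3, and from -0.69 (RING1) to 0.79 (RBBP7) in RiPS1. In RiPS2 they ran from -0.51 (CBX7) to 0.36 (EZH1), and in RiPS3 from -0.66 (PHC2) to 0.72 (EZH1).

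The last comparison set a cloned line against an induced line of the same sex. No member was called by limma in CRES-1 against RiPS1, where 2.14% of all genes were, or in CRES-3 against RiPS3, where 0.0359% were. At an unadjusted p under 0.05 there were 5 of 20 members in CRES-1 against RiPS1 and 2 in CRES-3 against RiPS3, where 22% and 7.91% of all genes passed. RBBP7 was lower in CRES-1 than in RiPS1 (log2 difference -0.72, SE 0.10, adjusted p = 0.000355), under 2-fold, where 7.15% of all genes passed the adjusted p alone. The 95% interval lay within 2-fold for all 20 members in both pairs, with differences of -0.72 (RBBP7) to 0.36 (RING1) between CRES-1 and RiPS1 and of -0.32 (PHC3) to 0.48 (CBX7) between CRES-3 and RiPS3. The cloned minus induced difference was not the same in the male and the female pair for 2 of 20 members (interaction term), against 4.87% of all genes. It had opposite signs in CBX7 (-0.49 for CRES-1 minus RiPS1 and 0.48 for CRES-3 minus RiPS3, adjusted p = 0.021) and differed in size in RBBP7 (-0.72 and -0.13, adjusted p = 0.0272).

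Sorted by origin, only RBBP7 had the means of all 3 induced lines apart from those of the 3 embryo-derived lines, against 4.09% of all genes, and its line means were 12.52 in RiPS1, 12.04 in RiPS2 and 11.95 in RiPS3, against 11.80 in CRES-1, 11.83 in CRES-3 and 11.72 in ORMES23. Sorted by sex, 3 members (EZH1, JARID2 and PCGF6) had the means of the 3 female lines apart from those of the 3 male lines, against 13.1% of all genes. None of these 3 passed the F test over the 6 lines (adjusted p = 0.0639, 0.821 and 0.107). The PCGF6 means of RiPS3 (8.88) and RiPS1 (8.87) all but touched. With 3 lines on each side, origin and sex cannot be told apart from other differences between the lines.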

How the data were processed

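RNA of 21 cultures (7 lines, 3 arrays each) was hybridised to Affymetrix rhesus arrays. The deposited log2 values, made by the authors with RMA per the submitters' processing notes (version not given in the sources used here), covered 52865 probe sets, of which 24969 had 1 gene symbol, 361 several and 27535 none in the platform annotation. Chromosomes came from RefSeq by gene identifier. Each gene was represented by its probe set with the highest mean. One limma 3.58.1 fit in R 4.3.3 used a mean per line, and p-values were adjusted over 11143 genes. The fit was also run on simulated data with shifts added in CRES-3 alone, which did not test the calls against fibroblasts. The number of arrays limits the precision. Values on each array are given for the 6 members that differed most from fibroblasts in each direction, for members called among pluripotent lines and for EZH1, and RBBP7 was added. Other listed genes are named where called in all 6 comparisons with fibroblasts or among pluripotent lines. Members, lists and named genes were chosen with earlier results of these data known. Replicate letters did not pair the arrays. Alternatives were other filters, probe set rules, scalings and left-out arrays.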

Additional observations from a re-analysis of the deposited data

Results flagged for a closer look

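The difference between the cloned and the induced line was not the same in the male and in the female pair for 2 of 20 members, by the interaction term of the limma fit, against 4.87% of all genes tested. For CBX7 the difference was log2 -0.49 for CRES-1 minus RiPS1 and 0.48 for CRES-3 minus RiPS3, which left a difference of differences of -0.97 (SE 0.23, adjusted p = 0.021). Neither pair passed on its own (adjusted p = 0.0784 and 0.386). For RBBP7 it was -0.72 for CRES-1 minus RiPS1 and -0.13 for CRES-3 minus RiPS3, a difference of differences of -0.59 (SE 0.15, adjusted p = 0.0272). Each no longer passed under 6 of 19 alternatives. CBX7 ran from -1.12 to -0.84 (adjusted p 0.00796 to 0.0643), and its 6 failures were without array A of CRES-1, CRES-3, RiPS1 or RiPS3, or array B of CRES-3 or RiPS1. RBBP7 ran from -0.67 to -0.23 (adjusted p 0.0119 to 0.284). It failed with the mean of its probe sets, the second of which was dim, and without array A of CRES-1 or CRES-3, array B of RiPS1, or array B or C of RiPS3. Each pair holds 1 line of each kind, so sex cannot be told apart from the individual lines.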

How the results depend on the processing

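The counts of members called against fibroblasts stayed within 1.5 times in all 14 alternatives of each comparison. Leaving out 1 array at a time gave 6 to 8 in CRES-1, 10 to 12 in CRES-3, 7 to 10 in RiPS1, 8 to 9 in RiPS2, 11 to 12 in RiPS3 and 8 to 10 in ORMES23. The 7 comparisons among pluripotent lines called 0 members in every alternative run. The count of members differing among the 6 lines, 2, was 1 with the mean of all probe sets of a gene and 1 with arrays centred on their medians, and 1 to 2 with an array left out. PHC2 was the gene lost, at a range of 0.58 with the mean of probe sets, and CBX7 passed in all. Of 1619 alternative values for 110 single-member results, 1512 kept their side of the threshold, 107 no longer passed and 0 reversed. The replicate letter as a block left these counts at 7 in CRES-1, 11 in CRES-3, 9 in RiPS1, 8 in RiPS2, 12 in RiPS3, 7 in ORMES23 and 2 among lines. Arrays of the same letter in different lines correlated in their deviations at a median of 0.01 (-0.41 to 0.44, 63 pairs), so the letters do not pair the samples. Dim probe sets, such as the second of PHC2, bound what can be seen of a gene.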
